A study of Homo sapiens with 4 samples.

Results

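The comparison described here is that of gRNA2+dox with gRNA2, the pair of MDA-MB-468 libraries in which the TCOF1 knockout was switched on or left off within 1 cell pool. It takes 2 of the 4 RNA-seq libraries of the series, chosen by their labels and not by any measured value. MDA-MB-468 is an established basal-like line of triple-negative breast cancer (TNBC). All 4 libraries came from mammospheres, the floating spheres that stem-like tumour cells form in serum-free medium, here with B27 and EGF. By the methods of the study, the cells carried 2 lentiviral vectors, a constitutive Cas9 marked by mCherry and a guide RNA that doxycycline (dox) switches on, marked by eGFP. Cells strong in both colours were sorted, so each line is a sorted pool and not a clone, and cells with an uncut or in-frame TCOF1 allele may remain. The gRNA2 library holds the TCOF1 guide without dox and the gRNA2+dox library the same guide with dox. The 2 other libraries, CTL and CTL+dox, come from control cells without the TCOF1 guide, without and with dox. They share no library with the comparison and give levels without and with dox where TCOF1 was not targeted. With 1 library per condition, dox and differences between cultures cannot be told apart. The dose of dox for these cultures was not given in the sources used here.

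TCOF1 encodes treacle, a nucleolar protein that holds RNA polymerase I and its factor UBF at the ribosomal DNA and takes part in the response to DNA breaks there. Loss of 1 copy causes Treacher Collins syndrome, in which neural crest cells are lost through p53. Interferons, the other theme of the values below, bind surface receptors that switch on transcription factors, which read short promoter elements called the gamma-activated site and the interferon-stimulated response element (ISRE).

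The guide is shown because it defines the knockout. Its target, 5′ to 3′ with the protospacer-adjacent motif in capitals, is:
TCOF1 gRNA2: gggccggcgcctttccccaaGGG
With the motif it spans chr5:149754959-149754981 of GRCh37, on the strand opposite to TCOF1, and lies within exon 11 of the 27 exons of the canonical transcript, a coding exon from 149754902 to 149755117. A cut there alters the coding sequence and not the promoter, so the TCOF1 RNA level reads the knockout only indirectly.

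Reads counted on genes came to 26322847 in gRNA2 and 22168624 in gRNA2+dox, and to 19960644 in CTL and 22467410 in CTL+dox. Of 26475 gene symbols, 15204 had at least 10 reads in at least 1 library and were compared. Levels are given in CPM, the reads divided by the TMM-scaled library size, and are not divided by gene length, so they compare libraries and not genes. A level of 3 reads, the smallest taken as measurable, is 0.115 CPM in gRNA2 and 0.137 CPM in gRNA2+dox. The log2 ratio is that of gRNA2+dox over gRNA2 and, for the control, of CTL+dox over CTL. The interval after a ratio is an exact 95% interval that covers counting error only, and no p-value is given because each condition has 1 library. Among genes with a mean of 1000 to 10000 reads, the log2 ratios had a robust SD of 0.118, against 0.0439 from counting error, and the control ratios 0.138 against 0.045. The spread beyond counting error was thus of like size in both pairs and is not part of the intervals. The basal-like markers of the line were abundant. The basal keratin KRT5 had 86469 reads in gRNA2 and 83156 in gRNA2+dox, and EGFR had 84853 and 73514.

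TCOF1 itself had 1318 reads in gRNA2 (50.6 CPM) and 437 in gRNA2+dox (20.01 CPM). The CTL library had 1019 reads and CTL+dox 754. The gRNA2+dox library was the lowest of the 4, and the gRNA2 level was close to that of CTL. The log2 ratio was -1.34 (-1.498 to -1.181), a 2.53-fold lower level. In the control cells it was -0.58 (-0.71 to -0.44), and the difference of these 2 ratios was -0.76 (-0.96 to -0.56). A lower TCOF1 level with dox was therefore measured in both pools and was larger in the gRNA2 cells.

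A gene was called lower where its log2 ratio was below -1 and the bound, the end of the central range of the ratio under counting error that lies nearest to 0, was below -0.5. The same rule with the sign turned gave the higher genes. By it, 41 genes were lower, 0.27% of those tested, and 39 were higher, 0.257%. In the control cells the same rule called 17 genes lower with dox (0.112%) and 9 higher (0.0592%). None of the 80 genes called in the gRNA2 cells was called in the same direction in the control cells. The median log2 ratio of all tested genes was -0.02, and 54.2% of them had a ratio below 0. The interval lay below 0 for 17.3% and above 0 for 13.6%. With an assumed coefficient of variation between cultures of 0.1 added to the counting error, 14 lower and 26 higher genes were left, and with 0.2, 6 and 15. TCOF1 kept its call at 0.1 and lost it at 0.2.

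**Figure D1:**
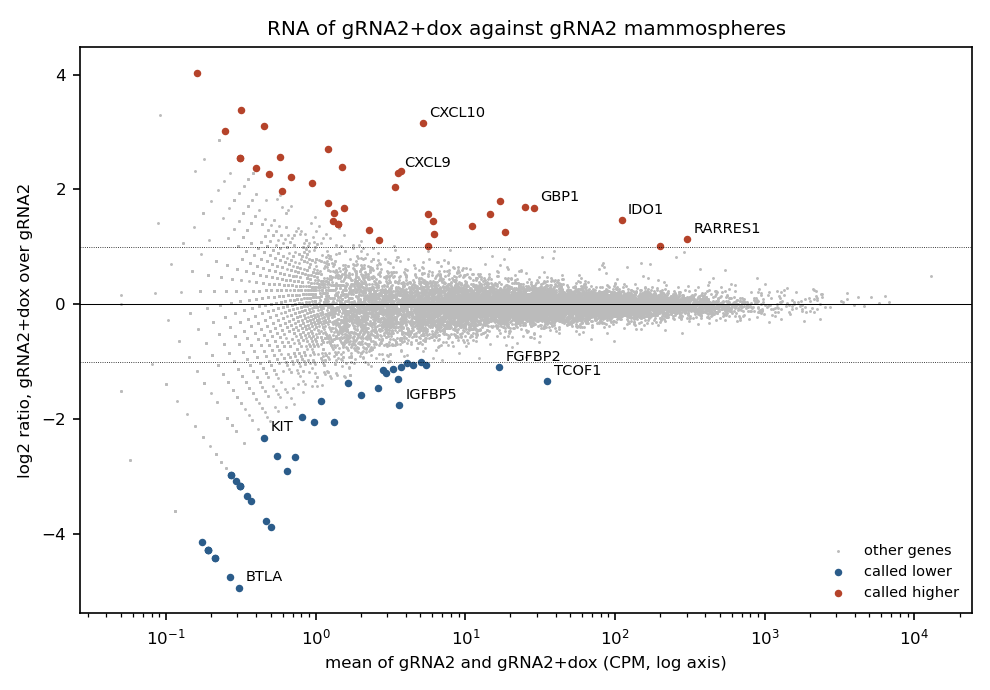
Each point is 1 of the 15204 tested genes, with its mean CPM in gRNA2 and gRNA2+dox on a log axis and the log2 ratio of gRNA2+dox over gRNA2; dotted lines mark ratios of -1 and 1. The called lower genes (blue, 41) sit mostly at low CPM, while the called higher genes (red, 39) reach up to RARRES1 with 9151 reads in gRNA2+dox.

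The lower and the higher genes differed in depth. The 41 lower genes had a median of 30 reads in gRNA2 and 3 in gRNA2+dox, and 21 of them had no more than 3 reads in gRNA2+dox, 8 of these with 0. Their median log2 ratio was -2.63, or -1.67 with the genes at 0 set at the floor of 3 reads. The 39 higher genes had a median of 20 reads in gRNA2 and 55 in gRNA2+dox, and 7 of them had at least 500 reads in the higher library. Their median log2 ratio was 1.77. The filter was passed through gRNA2 alone by 9 of the lower genes and through gRNA2+dox alone by 9 of the higher genes. The level in gRNA2+dox was below that of each other library for 40 of the 41 lower genes and above it for 36 of the 39 higher genes. Since the genes were chosen for their values in this pair, these counts are a description. For the 9 higher genes that passed through gRNA2+dox alone, the order was set by the filter.

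Of the genes called lower, TMEM100 stood furthest from 0 by its bound. It encodes a small membrane protein of BMP and ALK1 signalling in blood vessels, and had 25 reads in gRNA2 and 1 in gRNA2+dox, beside 36 and 48 in the control libraries. This is a log2 ratio of -3.88 (-9.75 to -1.78). BTLA, an inhibitory receptor of lymphocytes, had 16 reads in gRNA2 and 0 in gRNA2+dox, beside 3 and 4 in the control libraries, at least 4.47-fold lower against the floor of 3 reads. BTLA reached 10 reads in gRNA2 alone, so a level there above both control libraries was set by the filter. MPPED2, a metallophosphoesterase, had 7 and 25 reads in the control libraries, without and with dox, and 23 and 1 in the gRNA2 libraries. From here on 4 read counts are given in this order. The MPPED2 ratio was -3.76 (-9.63 to -1.65), whereas in the control cells it was 1.63 (0.45 to 3.15). ADD2, an adducin that caps actin in the membrane skeleton, had 12, 11, 14 and 0 reads and was at least 3.91-fold lower.

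COL8A1, a short-chain collagen, had 28, 39, 30 and 3 reads (log2 ratio -2.89, -5.42 to -1.38). IGFBP5, which binds insulin-like growth factors, had 104, 158, 146 and 36 reads. The IGFBP5 ratio was -1.75 (-2.33 to -1.23), against 0.46 (0.10 to 0.83) in the control cells. FGFBP2, named as a binding protein of fibroblast growth factors, was after TCOF1 the called lower gene with the most reads, with 814, 994, 598 and 235. Its log2 ratio was -1.09 (-1.32 to -0.87), and in the control cells 0.15 (0.01 to 0.28). For IGFBP5 and FGFBP2 the gRNA2+dox library was the lowest of the 4. SOSTDC1, a secreted inhibitor of BMP and WNT ligands, had 175, 230, 118 and 45 reads (log2 ratio -1.13, -1.67 to -0.63). PRSS12, a secreted protease, had 250, 317, 132 and 52 reads (-1.08, -1.58 to -0.62).

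HTR2A, a serotonin receptor, had 17, 16, 33 and 4 reads (log2 ratio -2.66, -4.75 to -1.30). OXGR1, a receptor for oxoglutarate, had 64, 65, 56 and 11 reads (-2.05, -3.18 to -1.15). TACR3, the neurokinin B receptor, had 4, 3, 11 and 0 reads and was at least 3.07-fold lower. Each of these had its lowest level in gRNA2+dox, and for HTR2A the gRNA2 library was also the highest of the 4. TACR3 passed the filter on low counts through gRNA2 alone, so its highest read count there was set by the filter. Among the remaining genes, ARHGAP6, a GTPase-activating protein, had 22, 24, 18 and 1 reads (-3.42, -9.30 to -1.25). HMGN5, a nucleosome-binding protein, had 32, 35, 17 and 1 reads (-3.34, -9.22 to -1.16). The uncharacterised LOC100505841 had 14, 35, 25 and 3 reads (-2.63, -5.18 to -1.09), and in the control cells its ratio was 1.15 (0.25 to 2.19). GATA1, the transcription factor of red blood cell precursors, had 23, 17, 41 and 8 reads (-2.04, -3.41 to -0.99).

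The other called lower genes had log2 ratios from -3.16 to -1.003, leaving out the 4 with 0 reads in gRNA2+dox, LOC101927630, SLC25A47, IQCF1 and SPANXB1. They were LOC101927630, GCNT1, SLC16A11, TEX19, SP9, CHGB, TMEM255A, GOLGA6L10, SLC25A47, IQCF1, SPANXB1, ADCY10, GMPR, GLYATL2, TMEM47, DLGAP5, CDK18, MARCH4, DIO1, C9orf163, XK and DEPDC1B, beside KIT and NOS2. GOLGA6L10 and SPANXB1 belong to families of near-identical copies, so their reads may be split or lost in counting. ADCY10, a soluble adenylyl cyclase, had 6, 0, 14 and 1 reads, and the difference of its ratios between the pools was 0.70 (-3.47 to 5.69), within counting error.

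The study took up 3 of its lower genes as stem cell genes, which were chosen on these same libraries. KIT encodes the receptor of stem cell factor, and had 27, 31, 20 and 3 reads. Its log2 ratio was -2.32 (-4.88 to -0.73), and in the control cells 0.06 (-0.73 to 0.86). NOS2, the inducible nitric oxide synthase, had 10, 17, 9 and 0 reads and was at least 2.52-fold lower. FZD8, a WNT receptor, had 64, 49, 37 and 16 reads with a log2 ratio of -0.94 (-1.90 to -0.07), and was not called. KIT and NOS2 were lowest in gRNA2+dox on few reads, and neither was called with an added variation of 0.1. For FZD8 the difference from the control cells was -0.41 (-1.41 to 0.57), which counting error spans. By quantitative PCR in mammospheres of this line, the study reported lower KIT, FZD8 and NOS2 RNA with the knockout. Its immunoblots of spheroids gave lower KIT and FZD8 protein. Those experiments are separate from the libraries described here. ALDH1A1, the enzyme behind a common stem cell assay, had 2653 reads in gRNA2 and 2740 in gRNA2+dox. The ALDH1A1 ratio was 0.30 (0.22 to 0.38), about the same as the 0.28 (0.21 to 0.35) of the control cells. The study, by contrast, reported lower ALDH1A1 RNA with the knockout in separate experiments.

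The lists to which these genes belong stood near the median of all genes. Of 11 tested receptors and ligands of the KIT family, KIT was the 1 called, and the median was 0.02. Its relative FLT3 had 22, 33, 22 and 11 reads (log2 ratio -0.72, -1.94 to 0.36). Of 26 Frizzled receptors and WNT targets none was called, 7 had an interval below 0 and 3 above, and the median was -0.03. FZD7 had a log2 ratio of -0.29 (-0.41 to -0.17) and the cyclin gene CCND1 one of -0.18 (-0.24 to -0.12). NOS2 was the 1 called gene of 11 for arginine metabolism, which had a median of 0.01. The Notch pathway had a median of -0.05 over 16 genes, 19 aldehyde dehydrogenases 0.05, and 25 genes of BMP and TGF-beta signalling 0.04, with SOSTDC1 the 1 called member. Among 13 surface markers of breast cancer stem cells none was called, 4 had an interval below 0 and 2 above, 8 had a ratio above 0, and the median was 0.03. PROM1 (CD133) had 1015 reads in gRNA2 and 671 in gRNA2+dox, a log2 ratio of -0.34 (-0.49 to -0.20), and CD44 had 51594 and 39687, a ratio of -0.12 (-0.14 to -0.11). The intervals above 0 were those of CD24, with 18353 and 16027 reads and 0.06 (0.03 to 0.09), and ITGB3, with 17 and 28 reads and 0.95 (0.05 to 1.94). Among 15 regulators of stemness, MSI1, an RNA-binding protein of neural stem cells, had the lowest ratio, -1.16 (-2.34 to -0.16), with 30 and 11 reads. SOX9, with 31098 and 26302 reads, had 0.01 (-0.01 to 0.04), and MYC -0.02 (-0.13 to 0.10). The list had a median of -0.07 and no member was called.

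**Figure D2:**
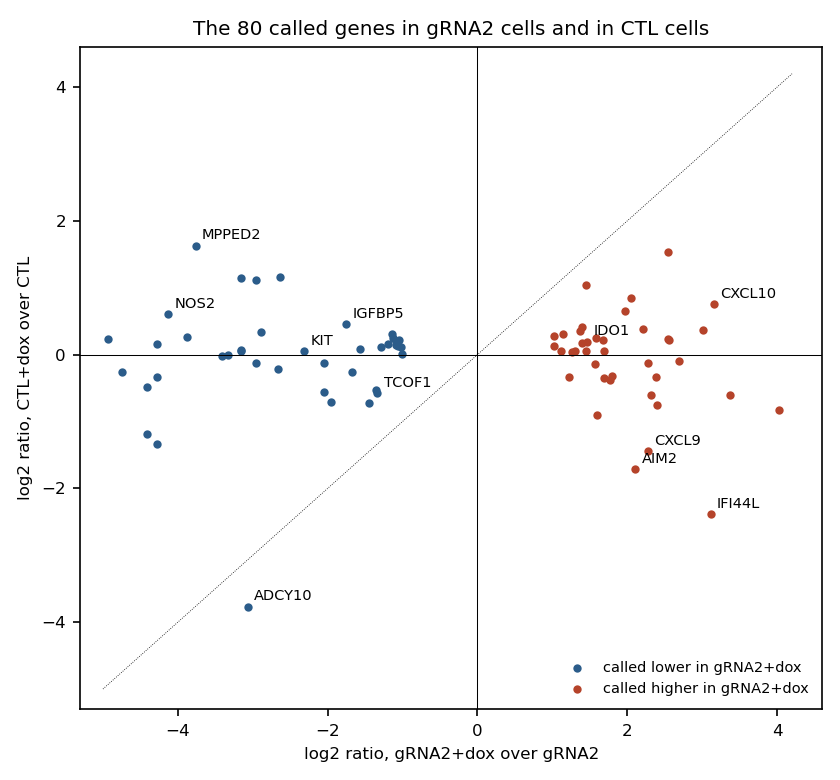
Each point is 1 of the 80 called genes, with the log2 ratio of gRNA2+dox over gRNA2 on the horizontal axis and that of CTL+dox over CTL on the vertical axis; the dotted line marks equal ratios. Most points lie near 0 on the vertical axis, with a median of 0.06 for the 41 lower genes (blue) and 0.05 for the 39 higher genes (red). ADCY10, the lower gene below the line, had 0 reads in CTL+dox, so its place on the vertical axis depends on the prior count.

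Ratios in the control cells were smaller for most of these genes. The difference of the 2 log2 ratios was beyond its 95% counting interval for 34 of the 41 lower genes and 32 of the 39 higher genes. In the control cells the interval lay on the same side of 0 for 3 lower and 5 higher genes, TCOF1, IDO1, RARRES1 and SERPINB4 among them. It lay on the opposite side for 4 lower genes, MPPED2, IGFBP5, FGFBP2 and LOC100505841, and for 1 higher gene, CXCL9. Since the genes were chosen for their values in the gRNA2 pair, these counts describe them and are no test.

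Genes of cell division had lower levels as a group, with small ratios. Of 43 genes of the mitotic spindle and cytokinesis, 39 had a ratio below 0, against 54.2% of all genes. The interval lay below 0 for 26 of the 43 and above it for 0, and the median log2 ratio was -0.29. The control median was 0.03, with 5 intervals below and 7 above 0. DLGAP5, which stabilises spindle microtubules, was the 1 called member, with 134, 161, 157 and 63 reads (log2 ratio -1.06, -1.51 to -0.63). PLK1, a kinase of mitotic entry and exit, had 517, 644, 704 and 371 reads (-0.67, -0.86 to -0.49), and ASPM, a spindle pole protein, had 309, 341, 365 and 206 (-0.57, -0.82 to -0.32). MKI67, the Ki-67 proliferation marker, had 634, 521, 984 and 527 reads. Its log2 ratio was -0.65 (-0.80 to -0.49), and in the control cells it was -0.42 (-0.59 to -0.26), so MKI67 was lower with dox in both pools. DEPDC1B, a called gene outside the list that is known from mitotic entry, had 92, 110, 143 and 59 reads (-1.02, -1.49 to -0.58).

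The neighbouring lists gave smaller values of the same sign. Of 33 kinetochore and spindle checkpoint genes, 15 had an interval below 0 and 1 above, with a median of -0.24 and none called. CENPF had 375, 263, 466 and 242 reads, a log2 ratio of -0.69 (-0.92 to -0.46), but it was as low in the control cells at -0.65 (-0.89 to -0.42). ZWINT, a kinetochore linker, had -0.50 (-0.78 to -0.23) against 0.12 (-0.12 to 0.35). Of 42 DNA replication genes, 18 had an interval below 0 and 1 above, with a median of -0.11. The helicase subunit GINS3 had a log2 ratio of -0.55 (-0.76 to -0.34), the origin protein ORC6 -0.55 (-0.84 to -0.26), and RRM2, which makes deoxynucleotides, -0.29 (-0.39 to -0.18). The 30 genes of recombination repair and checkpoints had a median of -0.07, and the control cells -0.11. Over all 4 lists, 64 of 148 genes had an interval below 0 and 4 above it, against 17.3% and 13.6% of all tested genes. In the control cells the intervals below and above 0 were 3 and 7 for the kinetochore list. They were 4 and 10 for replication and 6 and 4 for repair and checkpoints. In bulk RNA, fewer dividing cells and less of these transcripts per cell cannot be told apart.

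The higher genes were led by chemokines and other genes that interferons induce. Of the 39, 17 belonged to the interferon lists written for this comparison, which hold 128 tested genes. The share called higher among all tested genes was 0.257%. Of these 128, 68 had an interval above 0 and 11 below, against 13.6% and 17.3% of all tested genes. None was called lower, but only 0.27% of all tested genes were, so this says little about the lists. In the control cells the figures were 21 above and 16 below. The median log2 ratio of the 128 genes was 0.22, against 0.02 in the control cells. Of the 17 called, 5 reached 10 reads in gRNA2+dox alone and so had to be higher there to be tested. The lists were written with earlier results of these libraries known, so their counts are a description. All 17 had their highest level in gRNA2+dox, and 11 were also higher in gRNA2 than in both control libraries. A gRNA2 level above both control libraries was found for 16 of all 39 higher genes and 19 of the 41 lower genes. These orders are of levels alone and leave out counting error. For the 9 lower genes that passed the filter through gRNA2 alone, more reads in gRNA2 than in the control libraries were set by the filter.

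CXCL10, CXCL9 and CXCL11, which lie side by side on chromosome 4 and encode the ligands of the lymphocyte receptor CXCR3, were all called higher. CXCL10 had 24, 45, 27 and 206 reads, 1.04 CPM in gRNA2 and 9.43 CPM in gRNA2+dox. Its log2 ratio of 3.16 (2.60 to 3.82), an 8.94-fold higher level, had the furthest bound of all genes. The ratio in CTL+dox over CTL was 0.75 (0.02 to 1.54). CXCL9 had 28, 11, 31 and 128 reads, with log2 ratios of 2.28 (1.72 to 2.92) in the gRNA2 cells and -1.45 (-2.64 to -0.44) in the control cells. CXCL11 had 28, 32, 43 and 79 reads and a log2 ratio of 1.12 (0.58 to 1.70), with a bound of 0.50 at the cutoff. The monocyte attractants CCL2, CCL7 and CCL8, neighbours on chromosome 17, were called as well. CCL2 had 66, 76, 85 and 195 reads (log2 ratio 1.45, 1.08 to 1.84). CCL8 had 3, 2, 1 and 13 reads (3.38, 1.22 to 9.36) and CCL7 had 0, 1, 2 and 12 (2.55, 0.67 to 6.04). Of these 6 genes, CXCL11 was no longer called with library totals (1.12) and CXCL11 and CCL7 with gRNA2 thinned to the depth of gRNA2+dox (0.91 and 2.33). The list of chemokines for lymphocytes and monocytes had 12 tested genes, with a median of 0.68, or 0.25 without the filter on low counts. CCL7 and CCL8 passed that filter through gRNA2+dox alone, and over the other 10 genes, 4 of them called, the median was 0.16. The 6 genes not called had ratios from -1.10 to 0.25, among them CX3CL1 at -0.20 (-0.29 to -0.10), CCL22 at -0.23 (-0.38 to -0.08) and CXCL16 at 0.06 (-0.03 to 0.16). CCL5, another interferon-inducible chemokine, had 19 reads in both gRNA2 libraries.

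The guanylate-binding proteins, large GTPases that interferon gamma induces strongly, had higher levels as a family. All 7 tested members had an interval above 0 and 4 were called, with a median of 1.69 against 0.05 in the control cells. GBP1 had 184, 210, 356 and 961 reads (log2 ratio 1.69, 1.51 to 1.87). GBP4 had 119, 105, 197 and 573 (1.79, 1.56 to 2.04) and GBP5 had 152, 132, 306 and 829 (1.69, 1.501 to 1.886). GBP7 had 14, 16, 34 and 71 reads (1.30, 0.71 to 1.95). In each of these the gRNA2 library was already above both control libraries. GBP2 had a log2 ratio of 0.80 (0.67 to 0.94) and GBP3 of 0.32 (0.21 to 0.44), and GBP6 had 3 and 11 reads. The pseudogene GBP1P1, with 1, 1, 8 and 46 reads (2.70, 1.68 to 4.07), is a near copy of GBP1, so its reads may come from GBP1. The called genes of the family lie in 1 cluster on chromosome 1 of GRCh38, from GBP1 at 89052319 to GBP1P1 at 89424934.

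**Figure D3:**
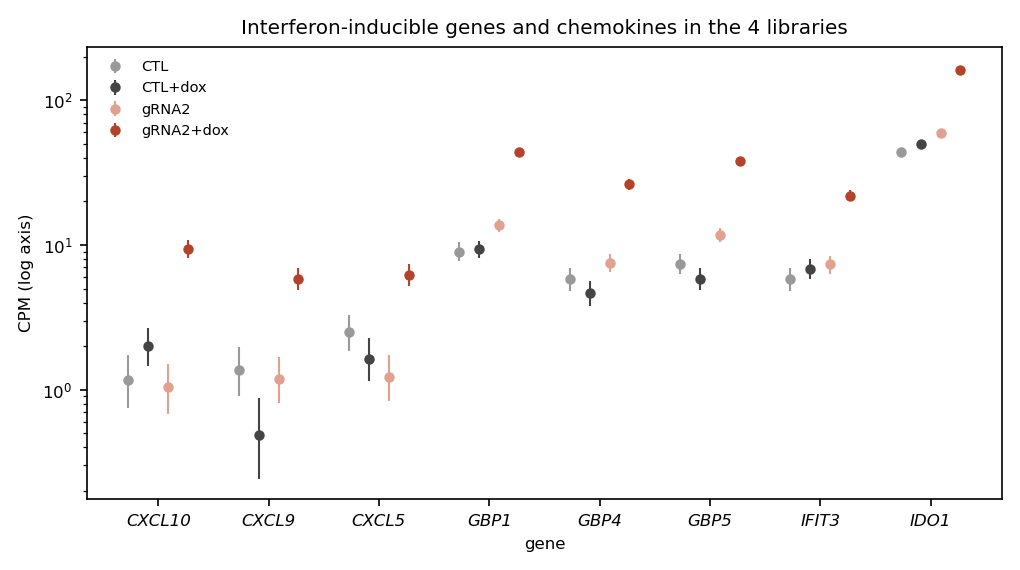
CPM of 8 genes in the 4 libraries on a log axis, with bars for the exact 95% Poisson interval of the reads and 1 library per condition. For each gene gRNA2+dox (dark red) is the highest, and for GBP1, GBP4, GBP5, IFIT3 and IDO1 gRNA2 (light red) is above CTL and CTL+dox (grey).

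Antiviral interferon-stimulated genes were uneven. Of 48 tested, 7 were called higher and 0 lower, 26 had an interval above 0 and 3 below, and the median was 0.22 against -0.01 in the control cells. IDO1, which breaks down tryptophan, had the most reads of the called members, with 893, 1127, 1533 and 3548. The IDO1 ratio was 1.46 (1.38 to 1.55), and in the control cells 0.19 (0.07 to 0.32). IFIT3, which binds viral RNA with its relatives, had 118, 154, 191 and 479 reads (1.58, 1.34 to 1.83), and its neighbour IFIT2 on chromosome 10 had 46, 46, 74 and 185 (1.57, 1.18 to 1.99). UBD, a ubiquitin-like protein induced by interferon gamma and TNF, had 8, 5, 12 and 55 reads (2.40, 1.53 to 3.49). AIM2, a sensor of cytosolic DNA, had 7, 2, 9 and 34 (2.11, 1.08 to 3.42), TRIM22 had 5, 9, 6 and 21 (1.97, 0.70 to 3.66) and IFI44L had 2, 0, 2 and 18 (3.11, 1.36 to 6.58). Each of these 7 was highest in gRNA2+dox. For AIM2, TRIM22 and IFI44L this was set by the filter, since they reached 10 reads in gRNA2+dox alone.

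Other classical members were far less changed. IFIT1 had a log2 ratio of 0.90 (0.36 to 1.47), BST2 of 0.56 (0.36 to 0.77), ISG15 of 0.42 (0.29 to 0.55) and MX1 of 0.30 (0.20 to 0.39). OAS1 had -0.06 (-0.20 to 0.08) and IFI6 -0.32 (-0.78 to 0.12), with intervals across 0. HERC5, with -0.30 (-0.48 to -0.12), SAMD9, with -0.28 (-0.41 to -0.16), and ADAR, with -0.10 (-0.15 to -0.04), had intervals below 0. None of these was called.

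Antigen presentation stood between the lists. Of its 29 tested genes none was called, where 0.257% of all tested genes were called higher. The interval lay above 0 for 20 and below it for 0, against 13.6% and 17.3% of all tested genes. The median was 0.23, against 0.08 in the control cells. PSMB9, a subunit of the immunoproteasome, had 142, 191, 218 and 361 reads (log2 ratio 0.98, 0.74 to 1.23). TAP1, a subunit of the peptide transporter, had 2250, 2591, 3392 and 4634 (0.70, 0.64 to 0.77). HLA-F had 0.68 (0.59 to 0.77) and HLA-B, with 19491 and 22377 reads, 0.45 (0.43 to 0.48). Reads of HLA genes can be split among near copies. Of the class II genes, the regulator CIITA had 0.66 (0.28 to 1.04) and the chaperone CD74 0.58 (0.40 to 0.75). The checkpoint ligands CD274 (PD-L1), with 260 and 314 reads, and PDCD1LG2 (PD-L2), with 60 and 97, had 0.53 (0.28 to 0.77) and 0.94 (0.47 to 1.44).

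Of 21 tested genes for interferon signalling, none was called, 8 had an interval above 0 and 3 below, and the median was 0.04. SOCS1 and SOCS3, which damp JAK and STAT signalling and are induced by it, had 0.82 (0.67 to 0.97) and 0.64 (0.57 to 0.72). IRF1, a transcription factor that interferons induce, had 1026, 1030, 1597 and 2059 reads and 0.62 (0.53 to 0.72), whereas in the control cells it had -0.14 (-0.26 to -0.01). STAT2 had 0.35 and IRF9 0.29. The interferons themselves were at the limit of detection. Of 10 interferon genes, IFNL1 alone passed 10 reads, with 7, 5, 15 and 8. IFNB1 had 2, 2, 3 and 1 reads, IFNG 0, 1, 0 and 1, and the 3 IFNA genes no more than 2 in any library. A difference in these genes was not detectable at this depth. The nucleic acid sensors MB21D1 (cGAS), with -0.42 (-0.80 to -0.05), and TMEM173 (STING), with -0.22 (-0.37 to -0.07), had intervals below 0, while ZBP1 had 8 and 23 reads (1.71, 0.57 to 3.15). The 11 tested sensors had a median of 0.03.

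Genes of inflammation outside the interferon lists were mixed. CXCL5, a neutrophil attractant, had 51, 37, 32 and 136 reads and the second furthest bound of all genes (log2 ratio 2.32, 1.78 to 2.95). IL24, a cytokine of the IL-10 family, had 17, 34, 34 and 119 reads (2.04, 1.501 to 2.657). CXCL2 had 0.73 (0.40 to 1.07) and CXCL8, with 13590 and 14515 reads, 0.35 (0.32 to 0.38), the latter against 0.31 (0.27 to 0.34) in the control cells. IL18 had 2095, 2256, 3103 and 1675 reads and went the other way, with -0.64 (-0.72 to -0.55). Of 18 neutrophil chemokines and interleukins 1 was called, with a median of 0.01. Among 18 genes of the NF-kappa-B system none was called and the median was 0.04. SOD2, the mitochondrial superoxide dismutase, had 3896, 4808, 5236 and 8285 reads (0.92, 0.87 to 0.97), while the feedback gene TNFAIP3 had -0.15 (-0.22 to -0.09).

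Some of the most abundant higher genes were in no list. RARRES1, a retinoic acid-responsive membrane protein, had 4052, 5543, 4951 and 9151 reads (log2 ratio 1.14, 1.09 to 1.19), against 0.31 (0.25 to 0.37) in the control cells. SERPINB4, a squamous epithelial protease inhibitor, had 1873, 2515, 3417 and 5794 (1.02, 0.95 to 1.08), and its near copy SERPINB3 may share reads with it. BATF2, a transcription factor that interferon induces, had 186, 210, 281 and 564 reads (1.26, 1.05 to 1.47). CLEC2B, a ligand of an NK cell receptor, had 69, 97, 162 and 351 (1.37, 1.10 to 1.65), and C1R, a protease of complement, 81, 71, 97 and 190 (1.22, 0.86 to 1.59). The remaining called higher genes, C10orf55, TMEM56-RWDD3, LOC731424, TVP23C, SAMD11, SLC25A48, TULP2, ABHD1, LOC100130264, STX11, RN7SL2, LINC01132, EFCAB11 and ZMAT4, had at most 165 reads in gRNA2+dox, the level of STX11. TMEM56-RWDD3 is a readthrough of neighbouring genes and RN7SL2 has many near copies, so these are uncertain.

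Markers of white blood cells were given beside these values because several of the higher genes are also immune genes. Of 20 such markers 6 were tested. PTPRC (CD45) had 2, 1, 2 and 1 reads, and CD3D, CD3G and NKG7 had 0 in all 4 libraries. The summed level of the list was 195 CPM in gRNA2 and 190 CPM in gRNA2+dox, carried by CD68 and CSF1R, which had 2395 and 1223 reads in gRNA2+dox. Fibroblast markers summed to 25.7 and 27.0 CPM and endothelial markers to 23.9 and 25.2 CPM. Their part in the results was not tested.

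Promoters are shown for 4 of the higher genes, from 3 chromosomes, because interferons act through short promoter elements. The calling of genes did not use these elements. All 4 are among the 8 higher genes below that hold the ISRE core, so they do not stand for the higher genes without it. Of the called genes, 25 higher and 28 lower ones had a promoter in the RefSeq table of GRCh38.p14, taken from 250 bases before to 50 after the gene start. The core of the ISRE was searched as GAAANNGAA and the gamma-activated site as TTCNNNGAA, which reads the same on both strands, and the ISRE core on both strands. The ISRE core was found in 8 of the 25 higher promoters (32.0%) and 2 of the 28 lower ones (7.14%), against 6.38% of the 11133 promoters of tested genes and 8.29% of all 27305. The gamma-activated site was found in 4 of 25 (16%) and 3 of 28 (10.7%), against 6.52% of tested genes. The ISRE core occurred in IFI44L, GBP1, GBP4, AIM2, IL24, IFIT3, CXCL9 and CXCL10, and the gamma-activated site in CCL7, CCL8, CXCL5 and CXCL11. A match of these letters is a description of the sequence and not a bound site.

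The 250 bases before each gene start, 5′ to 3′ on the strand of the gene, carry the ISRE core in capitals. In CXCL10 it begins 221 bases before the start, in CXCL9 171, in GBP1 126, and in IFIT3 155 and 121. In GBP1 and IFIT3 the letters are those of its reverse complement. The windows are chr4:76023498-76023747 and chr4:76007510-76007759, both on the reverse strand, chr1:89065209-89065458, also reverse, and chr10:89327747-89327996, forward.
CXCL10: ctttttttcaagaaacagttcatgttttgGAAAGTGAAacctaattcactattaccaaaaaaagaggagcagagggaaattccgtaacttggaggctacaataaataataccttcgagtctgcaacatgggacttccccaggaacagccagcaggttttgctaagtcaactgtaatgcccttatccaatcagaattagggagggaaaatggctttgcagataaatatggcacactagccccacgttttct
CXCL9: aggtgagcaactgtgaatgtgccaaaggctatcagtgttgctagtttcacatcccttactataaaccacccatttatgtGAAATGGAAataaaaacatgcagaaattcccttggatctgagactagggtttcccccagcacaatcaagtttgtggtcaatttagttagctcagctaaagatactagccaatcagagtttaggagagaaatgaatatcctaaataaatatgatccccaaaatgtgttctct
GBP1: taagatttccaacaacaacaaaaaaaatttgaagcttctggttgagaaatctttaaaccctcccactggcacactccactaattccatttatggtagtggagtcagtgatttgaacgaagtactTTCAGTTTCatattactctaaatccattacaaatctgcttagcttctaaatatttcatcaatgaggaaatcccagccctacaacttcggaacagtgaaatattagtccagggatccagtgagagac
IFIT3: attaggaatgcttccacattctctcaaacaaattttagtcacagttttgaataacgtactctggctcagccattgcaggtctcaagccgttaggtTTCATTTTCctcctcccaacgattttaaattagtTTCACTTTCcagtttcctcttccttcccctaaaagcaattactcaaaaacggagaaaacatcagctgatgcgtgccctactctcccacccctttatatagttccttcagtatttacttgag
Beside these sequences stand the read counts of gRNA2 and gRNA2+dox given above, 27 and 206 for CXCL10, 31 and 128 for CXCL9, 356 and 961 for GBP1 and 191 and 479 for IFIT3.

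The nucleolar and ribosomal programmes in which treacle works were close to the median of all genes. Of 16 genes of the RNA polymerase I machinery none was called, 2 had an interval below 0 and 3 above, and the median was 0.01. POLR1B, the second largest subunit of the polymerase, had 704, 766, 786 and 877 reads, a log2 ratio of 0.41 (0.27 to 0.55), against -0.02 (-0.17 to 0.13) in the control cells. UBTF, which encodes UBF, had -0.15 (-0.27 to -0.03) and TAF1D -0.25 (-0.38 to -0.12), both with like values in the control cells, -0.19 and -0.11. The 40 ribosome biogenesis factors had a median of 0.02, with 5 intervals below and 7 above 0 and ratios from -0.27 to 0.37. Of 77 cytosolic ribosomal proteins, 21 had an interval below 0 and 20 above, with a median of 0.02. In the control cells 62 of the 77 had an interval above 0, with a median of 0.12. The ribosomal RNA that polymerase I makes was not analysed here.

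**Figure D4:**
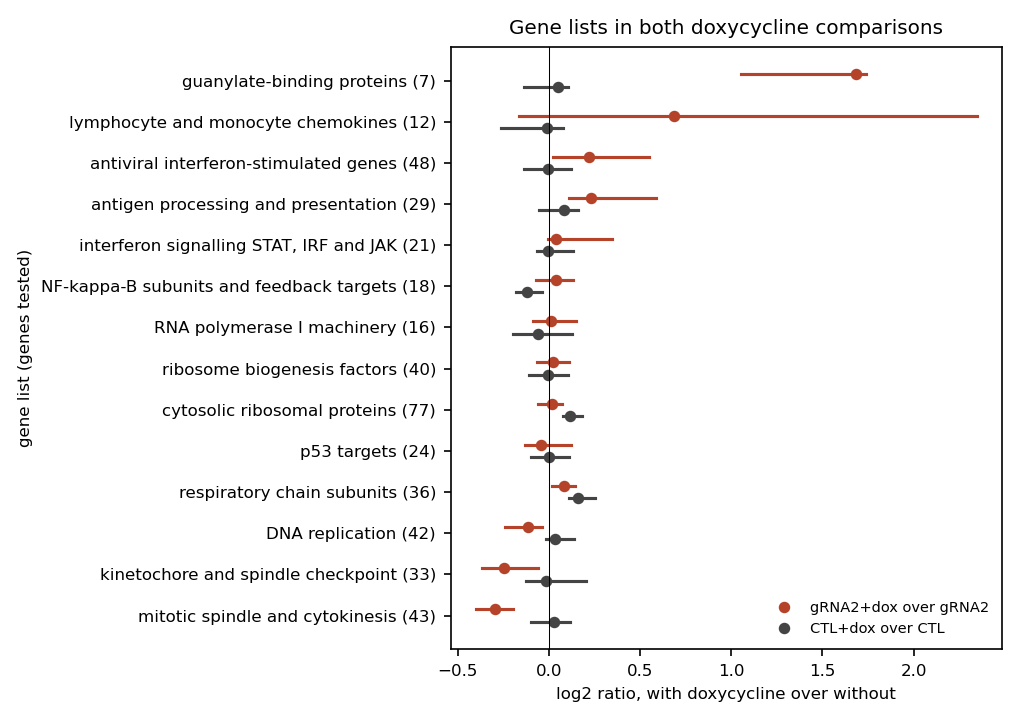
Median log2 ratio (dots) and interquartile range (bars) over the genes of 14 lists, with dox over without, in the gRNA2 cells (red) and the control cells (grey); the number of tested genes is in brackets. The guanylate-binding proteins are highest in the gRNA2 cells at 1.69 and the mitotic spindle list lowest at -0.29, while the ribosomal lists are near 0.

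Stress lists also had medians near 0, though some had more intervals below 0 than above. MDA-MB-468 carries a mutant p53. Of 24 p53 targets none was called, 7 had an interval below 0 and 6 above, and the median was -0.04. GADD45A, with 24646 and 19096 reads, had -0.11 (-0.14 to -0.09) and PHLDA3 0.15 (0.09 to 0.20). ATF4 targets had a median of -0.08, with 13 of 23 intervals below 0 and 3 above, against 17.3% and 13.6% of all genes. In the control cells 4 lay below and 5 above. Heat shock genes and chaperones had a median of -0.01, with 9 of 19 intervals below 0 and 2 above, and 8 and 5 in the control cells. The BCL2 family had a median of -0.03. Of 36 respiratory chain subunits, 18 had an interval above 0 and 2 below, with a median of 0.08, but in the control cells the median was 0.16 with 29 above. Genes of hypoxia and glycolysis had a median of -0.03, with 8 of 21 intervals below 0 and 4 above. Those of cholesterol and fatty acid synthesis had -0.04, with 11 of 23 below and 2 above. In the control cells the intervals below and above 0 were 1 and 9, and 2 and 13. FTH1, the ferritin heavy chain, was among the most abundant transcripts, with 185379, 235747, 281328 and 331740 reads. Its log2 ratio was 0.49 (0.48 to 0.50) and in the control cells 0.21 (0.20 to 0.21), and its many processed pseudogenes make the count uncertain. The other NRF2 targets and ferritin had ratios from -0.62 to 0.28 around a list median of 0.01.

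Signalling and identity lists held no called gene. The EGFR family and its ligands had a median of -0.22 over 12 genes, with 7 intervals below 0 and 1 above, against 0.01 in the control cells. The medians were 0.04 for 12 genes of STAT3 and gp130 signalling and -0.02 for 29 feedback and immediate early genes of ERK. Basal keratins had a median of 0.16, luminal keratins and regulators -0.03, and the S100 family 0.14, the last below the 0.20 of the control cells. Genes of the epithelial-mesenchymal transition had a median of -0.05. VIM (vimentin), with 834 and 560 reads, had -0.32 (-0.48 to -0.16), against 0.34 in the control cells, and SNAI1 had -0.36 (-0.58 to -0.15), whereas CDH1 (E-cadherin) had 0.05 (-0.01 to 0.10).

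Genes near TCOF1 were examined because Cas9 can remove or disturb sequence beside its cut. Of the 23 tested genes within 1 Mb on chromosome 5 of GRCh38, where TCOF1 runs from 150357697 to 150400293, none was called. Their median log2 ratio was -0.03. The interval lay below 0 for 7 of the 23, against 17.3% of all genes, and above it for 4. Of the 7, TIGD6 at -0.38 (-0.69 to -0.07) and ANXA6 at -0.25 (-0.38 to -0.12) had the lowest ratios. CD74, the nearest gene on the telomeric side, had 479 and 599 reads in gRNA2 and gRNA2+dox (0.58, 0.40 to 0.75), and RPS14 had 2777 and 2687 (0.21, 0.13 to 0.28). CSF1R, on the other side, had 1433 and 1223 (0.03, -0.09 to 0.14). Over the 440 tested genes of chromosome 5 that lie before TCOF1 the median was -0.00, and over the 157 beyond it -0.03, towards the chromosome end. These values are RNA levels averaged over the pool.

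**Figure D5:**
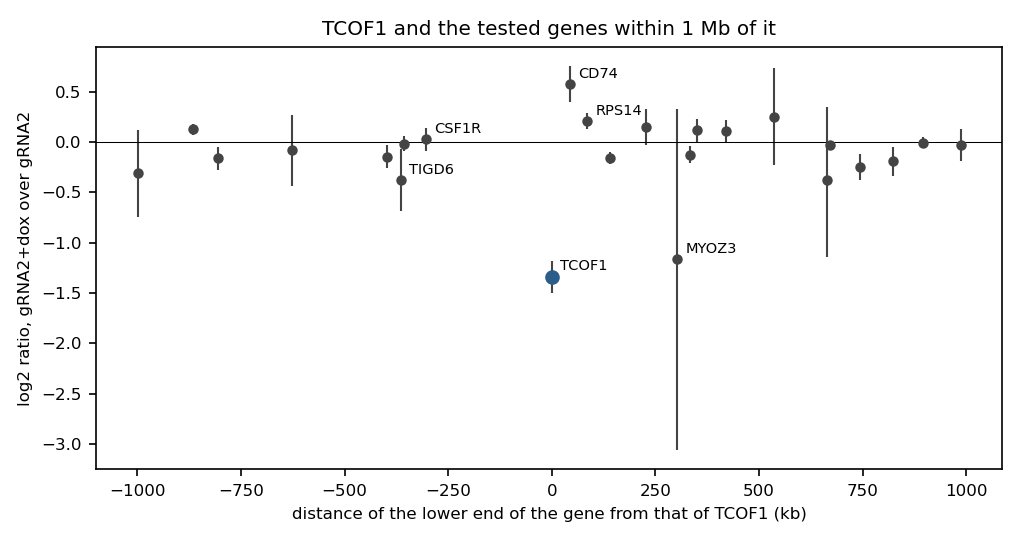
Log2 ratio of gRNA2+dox over gRNA2 with its 95% counting interval for TCOF1 (blue) and the 23 tested genes within 1 Mb, by distance in kb between the lower ends of the genes. TCOF1 is at -1.34, the other neighbours lie between -0.38 and 0.58, except MYOZ3, with 14 and 5 reads and an interval across 0.

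Other genomic sites like the guide target were searched in GRCh37, up to 3 mismatches with an intact NGG motif. There were 0 sites with 1 mismatch, 1 with 2 and 5 with 3, and none of these 6 lay in an annotated exon. The site with 2 mismatches was in an intron of EPS8, at chr12:15942064-15942086, with the substitutions G3A and C16G counted from the 5′ end of the guide, the guide base first. EPS8, an actin-capping adaptor of EGFR signalling, had 1586 reads in gRNA2 and 1284 in gRNA2+dox, a log2 ratio of -0.05 (-0.16 to 0.06). PLB1, with a site of 3 mismatches in an intron, had 525 and 364 reads (-0.27, -0.47 to -0.08). Neither was called, and cutting at these sites was not measured.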

How the data were processed

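RNA of MDA-MB-468 mammospheres was measured in 4 libraries, each from pooled plates. Per the labels and methods, the authors trimmed reads with fastp and deposited STAR counts of reads per gene on hg38, unnormalized. The version and annotation are not given in the sources used here. Reads with several mapping places were not counted by STAR. The unstranded count was used, because the first strand held 49.0% to 49.1% of stranded reads, so antisense and overlapping genes cannot be told apart. The 4 summary lines of each table were left out. They held 20.3% of the reads in both gRNA2 libraries.

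Counts were scaled with edgeR 4.0.16 (TMM, all symbols) in R 4.3.3. A prior count of 0.5 entered the log2 ratios, and a gene was kept if any library had 10 counts or more. A call needed a log2 ratio beyond 1 and a bound beyond 0.5. The bound was the 1% or 99% quantile of the ratio under Poisson error with a flat prior, computed with Python 3.11.15, numpy 2.4.6, scipy 1.17.1 and pandas 2.3.3, and tested on simulated data. The study's own ranking tool, GFOLD, and its gene set enrichment were not run. Intervals are exact 95% Clopper-Pearson intervals of a pair of counts, and those of differences come from 4000 posterior draws. Reads are not independent molecules, so intervals and floors cover counting error only. The deposited samples have no replicate.

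The members and the 43 gene lists were chosen with earlier results of these data known. Named genes were TCOF1, the study's stem cell genes, every called gene, with the 12 of furthest bound in each direction in full, the called members and the up to 4 members with the furthest bound of each list, and the neighbours and near matches of the guide. Other list members, named for their role, were chosen after their values were seen: CX3CL1, CCL22, CXCL16, CCL5, IFIT1, BST2, ISG15, MX1, OAS1, IFI6, HERC5, SAMD9, ADAR, CIITA, CD74, CD274, PDCD1LG2, STAT2, IRF9, IFNB1, IFNG, PROM1, CD44, ITGB3, MSI1, SOX9, MYC, VIM, SNAI1 and CDH1. A few list members are not reported here. Gene positions and promoters are from RefSeq GRCh38.p14, which placed 91.7% of the tested genes. The guide was placed on GRCh37 with GENCODE 44 lifted to it, and coordinates of the builds were not combined. The alternatives tried were size factors of DESeq2 1.42.0, library totals, other filters, thinning, a prior count of 5, other quantiles and cutoffs, and added variation.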

Additional observations from a re-analysis of the deposited data

Results flagged for a closer look

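For 5 called genes, the ratio in the control cells went the opposite way, with a counting interval clear of 0. Each condition has 1 library, and the difference was not tested across replicates. The log2 ratio in the gRNA2 cells minus that in the control cells was -5.39 for MPPED2, -2.21 for IGFBP5, -1.24 for FGFBP2, -3.79 for LOC100505841 and 3.73 for CXCL9. IGFBP5 and FGFBP2 rest on at least 36 reads in every library, and MPPED2 and LOC100505841 on 1 and 3 reads in gRNA2+dox.

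Outside the gene counts, reads that lay in no annotated gene made up 12.5% of the gRNA2+dox library, the highest share of the 4. In gRNA2 the share was 11.3%, in CTL 10.8% and in CTL+dox 10.6%. These reads entered no comparison, and their part in the results was not tested.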

How the results depend on the processing

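Counts of calls depended most on the bound. Of the 41 lower and 39 higher genes, a filter of at least 50 counts left 17 and 21, all of them among the main calls, since fewer genes were compared. A bound at the 5% quantile gave 112 lower and 82 higher genes, and the log2 ratio alone 308 and 218. An assumed coefficient of variation between cultures of 0.1 left 14 lower genes and 26 higher ones, and one of 0.2 left 6 and 15. The 6 were COL8A1, HTR2A, IGFBP5, MPPED2, OXGR1 and TMEM100, so TCOF1, KIT and NOS2 were no longer called, and the 15 include CXCL10, CXCL9, CXCL5, GBP1, GBP4, GBP5, IDO1, IFIT2 and IFIT3. A cutoff of 1.5-fold in place of 2-fold gave 48 lower and 59 higher genes. Under the other alternatives the calls ranged from 39 to 46 lower and 37 to 46 higher, among them TMM factors on the filtered genes and a half-count prior, both chosen after seeing the data. Of the ratios of named genes under 7 alternatives, 571 kept their side of the cutoffs, 17 were no longer called and 0 changed sign. The losses were CXCL11 with library totals, CCL7, CXCL11, LINC01132, RN7SL2, SOSTDC1, STX11, TACR3, TRIM22 and TULP2 with thinned gRNA2, STX11 with a prior count of 5, and CDK18 and DEPDC1B with DESeq2 size factors, a prior count of 5 and TMM on filtered genes. With the added variation of 0.1, CXCL11 and CCL7 were not called either. Of the list medians, 221 moved by less than the counting error of the summed reads, 63 by more, and 8 near 0 changed sign. These became 0.0007 (DESeq2 size factors) and 0.003 (TMM on filtered genes) for heat shock and chaperones, -0.0011 (total counts) for neutrophil chemokines and interleukins, -0.0053 (no filter, and at least 50 counts) for DNA and RNA sensing, -0.107 for NOS2 and arginine metabolism and 0.0122 for the BCL2 family (no filter), and -0.0213 (thinned gRNA2) for the KIT family; the cause was not tested. In the control cells 17 to 25 genes were called lower and 8 to 9 higher. No paired analysis was possible because the groups hold 1 library each, and no replicate could be left out for the same reason. Depth limits the lower genes most, 21 of which had at most 3 reads in gRNA2+dox. Culture-to-culture variation has no measurement here.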
